A study of Homo sapiens with 4 samples.

Results

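The genes described here are the nucleoporins and the receptors and factors of nuclear transport. They were taken by symbol from a fixed list of 38 genes, and all 38 were found among the 40205 rows of the deposited table, 25 of them nucleoporins and 13 of them transport receptors and factors. Poly(A) RNA came from U87MG and U251, established human glioblastoma cell lines grown in DMEM with fetal bovine serum. Each line was infected with lentivirus carrying either a control hairpin (sh-NC, the libraries titled WT) or a hairpin against SRSF1 (sh-SRSF1, titled KD) at a multiplicity of infection of 20, and stable cells were selected with puromycin. The control cells were therefore also infected and selected. There was 1 library per line and arm, so the only replicates of the knockdown are the 2 lines, and whether the cells of 1 line came from separate infections is not given in the sources used here. The p-values below rest on how far the knockdown ratios of the lines differ, 1 residual degree of freedom, pooled in part over genes. The spread between cultures of 1 line was not measured, and how much of the difference is technical is not known.

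The nuclear pore complex is the gate between nucleus and cytoplasm. An outer ring of Y-shaped complexes and an inner ring form its scaffold. Nucleoporins rich in phenylalanine-glycine repeats fill the central channel, filaments reach into the cytoplasm and a basket hangs on the nuclear side. Importins and exportins carry proteins through the channel, steered by the small GTPase Ran, while the NXF1-NXT1 dimer carries most mRNA out. SRSF1, the targeted gene, encodes a splicing factor that itself shuttles between the compartments, and the import receptor TNPO3 carries SR proteins into the nucleus.

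The libraries held 25099799 to 27953878 reads, as recovered from the steps of the RPKM values (reads scaled to the length of the gene model and to the depth of the library). SRSF1 stood at 88.3 RPKM in control and 14.6 in knockdown cells of U87MG, against 109 and 15.8 RPKM for U251. Of its 31-base words 59.9% also occur in other annotated genes, nearly all of them in AC015813.2 (59.4%), so its level is uncertain. Of 11 astroglial and glioma markers, VIM (1065 to 1675 RPKM) and CD44 (124 to 184 RPKM) were high in all 4 libraries, while 4 (S100B, AQP4, SLC1A2 and ALDH1L1) stayed under 1 RPKM in every library and AQP4 was listed at 0 throughout. The lines differed in others: SOX2 had 0.121 and 0.0460 RPKM in the U87MG libraries against 47.9 and 49.3 RPKM in those of U251, NES 1.79 and 1.29 against 61.1 and 83.65 RPKM, and OLIG2 0.936 and 2.46 against 0.0146 and 0.0263 RPKM. GFAP was at 0.0246 RPKM without and 0.0499 with the knockdown for U87MG, and at 1.47 and 0.580 RPKM for U251. Leukocyte, endothelial and epithelial markers were all under 1 RPKM, with sums of 0.0696 to 0.620 RPKM per list and library. The sums of the neuronal markers were 7.53 to 11.03 RPKM, led by SYT1, and RBFOX3 was listed at 0. Among the 4 oligodendrocyte markers only MBP passed 1 RPKM, in U87MG. All 20 proliferation markers were lower in the knockdown library of both lines, with median log2 ratios of -1.55 in U87MG and -0.83 in U251. Their summed level was 1277 RPKM in control and 414 in knockdown cells of U87MG, and 1732 and 980.4 RPKM in U251. The members that were lower moved with these markers, and the part of proliferation in the results was not tested. In bulk RNA, fewer cells in a phase and less RNA per cell cannot be told apart.

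Every member was expressed in U251, and 37 of 38 reached 1 RPKM in both U87MG libraries, the exception being NUP210. All 38 passed the filter of at least 1 RPKM in at least 1 library. Per length, the transport factors stood above the nucleoporins, with median levels of 64.4 against 18.4 RPKM in the U87MG control and of 33.5 against 20.6 RPKM in the U251 control. RAN (219 RPKM) was the highest member in the U87MG control, KPNA2 (217 RPKM) in the U251 control, and KPNB1 in both knockdown libraries (183.5 and 194 RPKM).

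**Figure D1:**
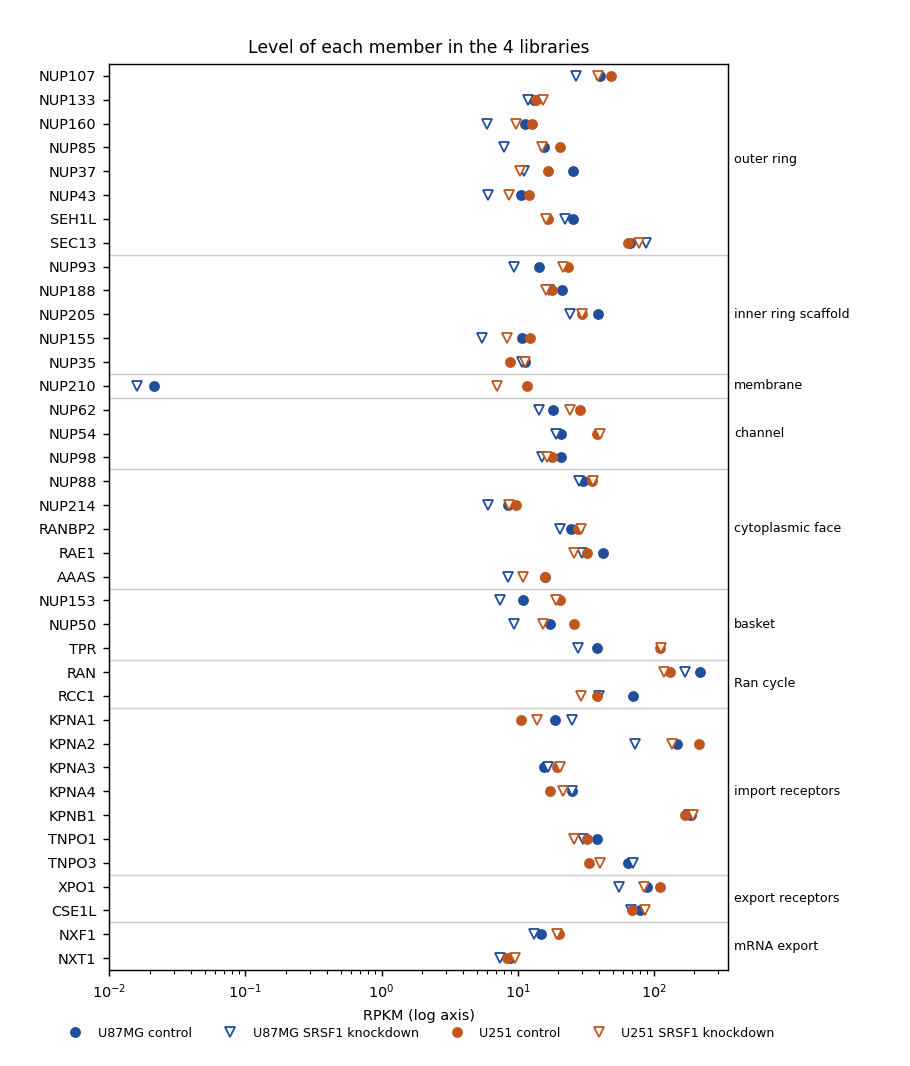
RPKM of the 38 members in each library on a log axis, grouped by their place in the pore or in transport; filled circles are control libraries, open triangles knockdown libraries, blue U87MG and orange U251. NUP210 lies at 0.0211 and 0.0160 RPKM in U87MG, apart from all others, and RAN and KPNB1 lie to the right of every nucleoporin in all 4 libraries, while many receptors lie within the range of the nucleoporins.

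The main comparison asked what the SRSF1 knockdown did to these genes in each line. Most nucleoporin transcripts were lower in the knockdown library, more so in U87MG. Each ratio is a log2 value, taken after adding 1 to the RPKM of both libraries, with the control as the denominator. In U87MG 33 of 38 members (86.8%) lay below 0, against 55.5% of the 16098 genes tested, and in U251 23 (60.5%) did, against 50.5%. The same 23 members (60.5%) lay below 0 in both lines, against 36.5% of all genes. In both lines 5 lay above 0 (13.2%, against 29.3% of all genes), namely SEC13, KPNA1, KPNA3, KPNA4 and TNPO3. The remaining 10 lay below 0 in U87MG and above 0 in U251 (26.3%, against 18.5% of all genes). NUP210 is counted among the 23, although its U87MG ratio of -0.01 rests on 4 reads in control and 3 in knockdown cells. The median over all members was -0.34 in U87MG and -0.12 in U251, against -0.05 and 0.00 over all genes. For the 25 nucleoporins the medians were -0.45 and -0.15, and for the 13 transport factors -0.21 and 0.07.

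At a fixed fold, 11 members (28.9%) were at least 1.5-fold lower in U87MG, against 11.5% of all genes, and none was 1.5-fold higher (7.68% of all genes). These 11 were NUP37, NUP43, NUP85, NUP155, NUP160, NUP205, AAAS, NUP50, RCC1, KPNA2 and XPO1. Only NUP37 and KPNA2 passed 2-fold there (5.26%, against 3.58% of all genes). In U251 4 members were at least 1.5-fold lower (10.5%, against 7.73% of all genes), NUP37, NUP50, KPNA2 and NUP210. None was 1.5-fold higher (5.01% of all genes). NUP37, NUP50 and KPNA2 passed 1.5-fold in both lines (7.89%, against 3.76% of all genes).

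Across the lines, with the line as a block, limma called 3 of 38 members (7.89%) lower in the knockdown (Benjamini-Hochberg adjusted p under 0.05), against 2.61% of all genes. None was called higher, against 1.16% of all genes. At an unadjusted p under 0.05, 12 members were lower (31.6%, against 12.8% of all genes) and 0 higher (8.29% of all genes). In 14 members (36.8%) both knockdown libraries lay below both controls, against 14.4% of all genes. In 1, SEC13, both lay above (2.63%, against 9.37% of all genes). None of the 3 calls held after trimmed-mean rescaling (lowest adjusted p of a member by limma 0.067) or without the intensity trend (0.072). They were also lost without the line as a block (1) and with no filter on low values (0.42). In both of these last settings limma called no gene at all, SRSF1 included, so they say nothing particular to these 3 genes. When genes needed 5 RPKM, 6 members were called, where 5.65% of 10752 genes were called lower.

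**Figure D2:**
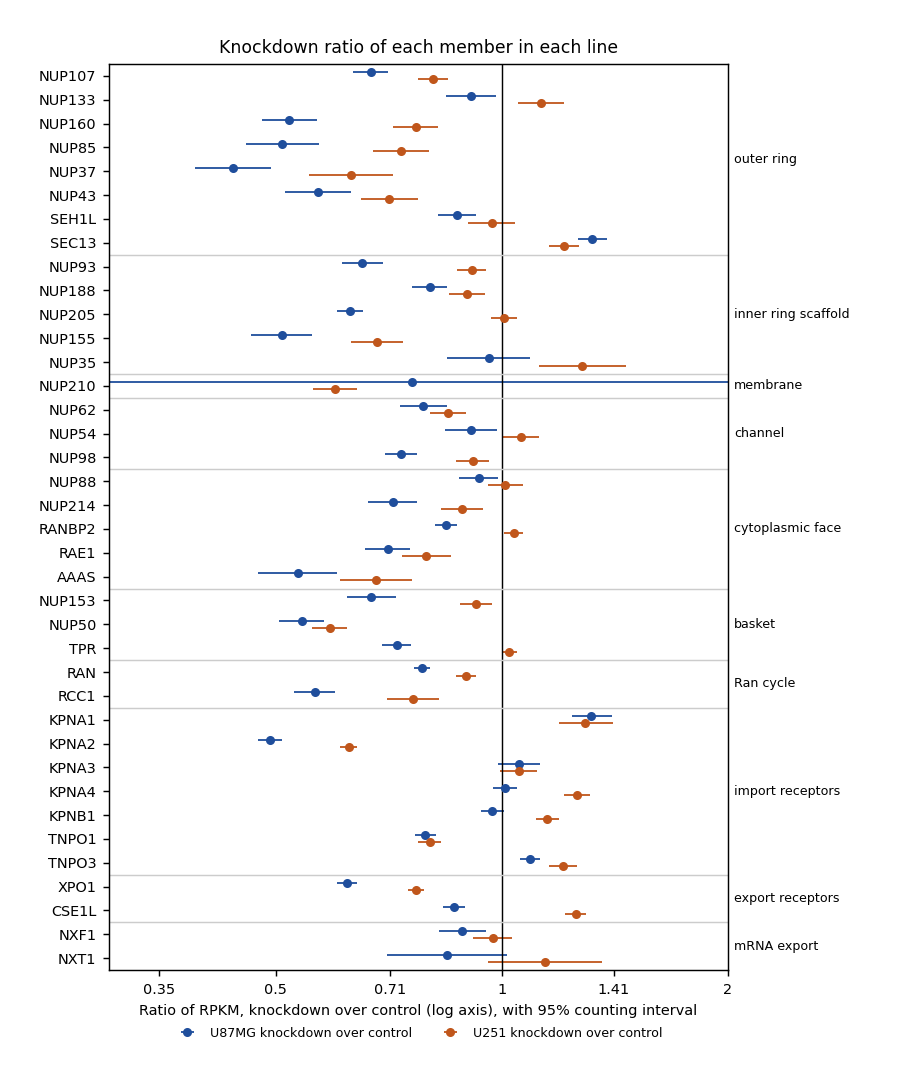
Knockdown over control ratio of RPKM for each member in U87MG (blue) and U251 (orange) on a log axis; bars are 95% Clopper-Pearson intervals, which cover counting error only, and the vertical line marks no difference. NUP37, NUP50 and KPNA2 lie far to the left in both lines, SEC13 and KPNA1 to the right, and the interval of NUP210 in U87MG, from 0.111 to 4.49, runs past both ends of the axis.

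KPNA2, importin alpha 1, an adaptor that binds classical nuclear localisation signals and hands them to importin beta, had the lowest adjusted p of the members. U87MG held 149 RPKM of it without and 73.2 RPKM with the knockdown, and U251 held 217 and 136 RPKM. Both knockdown libraries lay below both controls. The limma estimate was -0.84 ± 0.16 (SE, n = 2 libraries per arm, adjusted p = 0.038). Of the 31-base words of its longest coding transcript 33.5% also occur in other annotated genes, most of them in the read-through pseudogene ARHGAP27P1-BPTFP1-KPNA2P3, so its count is uncertain. KPNA2 lies on chromosome 17 from 68035519 to 68046842, forward strand, in GRCh38 (GENCODE 29).

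NUP37, a small propeller-shaped subunit of the outer ring, was at 25.6 RPKM in control and 11.2 in knockdown cells of U87MG, against 16.7 and 10.5 RPKM for U251. The knockdown libraries of both lines reached nearly the same level from unequal controls. By limma it fell by 0.87 on the log2 scale (SE 0.19, adjusted p = 0.049). NUP50, a basket nucleoporin that helps importin alpha release its cargo, was at 17.3 RPKM without and 9.37 with the knockdown for U87MG, and at 26.1 and 15.4 RPKM for U251. Its estimate was -0.77 ± 0.16 (adjusted p = 0.048 by limma), and its ratios of -0.82 and -0.73 were the most alike of these 3 genes. A share of 21% of NUP50's 31-base words is found in other genes. NUP37 lies on chromosome 12 from 102073103 to 102120124 (reverse strand) and NUP50 on chromosome 22 from 45163841 to 45188015 (forward strand).

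Because these 3 genes moved together, the sequences before their RefSeq transcription starts are shown, beside CSE1L and KPNA1, which were not lower in both lines. RefSeq promoters on GRCh38.p14, 250 bases before to 50 after the first start listed, matched 35 of 38 members, 9 of which have more than 1 start listed. They were searched on both strands for 4 motifs. These were the cell cycle homology region (CHR, TTTGAA or TTCGAA), the CCAAT box (CCAAT), an E2F core (TTCCCGC or TTCGCGC or TTGCCGC or TTGGCGC) and an NRF1 core (GCGCATGCG). Below are the 120 bases before each start, 5′ to 3′ on the gene's strand, with every match in capitals.
KPNA2 (chr17:68035615-68035734, +): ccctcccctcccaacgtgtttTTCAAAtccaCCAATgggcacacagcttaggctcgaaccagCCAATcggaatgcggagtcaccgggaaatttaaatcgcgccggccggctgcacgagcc
NUP37 (chr12:102120115-102120234, -): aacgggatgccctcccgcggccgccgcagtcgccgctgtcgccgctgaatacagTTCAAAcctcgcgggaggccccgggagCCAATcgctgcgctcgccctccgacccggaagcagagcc
NUP50 (chr22:45163805-45163924, +): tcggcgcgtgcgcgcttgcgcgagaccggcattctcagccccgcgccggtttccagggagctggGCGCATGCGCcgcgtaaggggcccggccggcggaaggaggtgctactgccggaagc
CSE1L (chr20:49046192-49046311, +): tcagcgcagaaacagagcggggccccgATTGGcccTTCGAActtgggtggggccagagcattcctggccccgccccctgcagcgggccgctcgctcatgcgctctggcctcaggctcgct
KPNA1 (chr3:122514940-122515059, -): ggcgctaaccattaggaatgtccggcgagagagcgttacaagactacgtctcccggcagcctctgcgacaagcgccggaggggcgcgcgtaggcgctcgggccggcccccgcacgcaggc

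Within the bases shown, KPNA2 and NUP37 each hold a CHR followed by a CCAAT box, with a further CCAAT box in KPNA2. Their CHR (TTCAAA) lies on the opposite strand. CSE1L holds both motifs in the other order there. Its CCAAT box lies on the opposite strand, and its CHR (TTCGAA) reads the same on both. KPNA2 and CSE1L each hold a further CHR after the start. Over the full 300 bases CCAAT boxes therefore also precede a CHR in KPNA2. NUP50 holds neither a CHR nor a CCAAT box but has 2 overlapping matches to the NRF1 core. In the full 300 bases, a CHR was present in 8 of 35 members (22.9%), against 16.6% of all 27305 promoters and 11.6% of the 10109 promoters of genes tested. The CCAAT box was in 15 (42.9%, against 35.7% and 37.9%), the E2F core in 14 (40%, against 13.1% and 21%) and the NRF1 core in 3 (8.57%, against 2.1% and 3.89%). CHR and CCAAT box occurred together in 6 members (NUP37, NUP205, NUP35, NUP98, KPNA2 and CSE1L), and in 6.58% of all promoters and 5.09% of those of genes tested. The ratios of these 6 ran from -1.12 to -0.05 in U87MG and from -0.67 to 0.32 in U251. Their medians were -0.54 and -0.06. The 7 members with none of the 4 motifs had ratios from -0.83 to 0.38 in U87MG (median -0.16) and from -0.52 to 0.34 in U251 (median 0.05). The groups overlap and were not compared by a test. A match is a description of the letters, not a site of binding.

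In the outer ring, the Y complex that also sits on kinetochores in mitosis, 6 of 8 members had ratios below 0 in U87MG and U251 alike (medians -0.64 and -0.32). NUP85 was at 15.65 RPKM in control and 7.98 in knockdown cells of U87MG, against 20.6 and 15.1 RPKM for U251 (-0.66 ± 0.18, adjusted p = 0.097 by limma). NUP160 was at 11.4 and 5.94 RPKM and at 12.8 and 9.79 RPKM (-0.59 ± 0.18, adjusted p = 0.12). NUP43, another propeller subunit, was at 10.6 and 6.03 RPKM and at 12.2 and 8.65 RPKM (-0.59 ± 0.17). In each of these, and in NUP107 (40.2 and 26.9, then 48.4 and 39.1 RPKM), the knockdown libraries lay below both controls, yet none passed the adjusted threshold.

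In the rest of the outer ring, NUP133, SEH1L and SEC13, the knockdown libraries did not lie below both controls. SEH1L still had ratios below 0 in both lines (-0.19 and -0.04). NUP133, which anchors the tip of the Y, was at 13.1 RPKM without and 11.9 with the knockdown for U87MG, and at 13.7 and 15.4 RPKM for U251, with an estimate of 0.02 ± 0.17. SEH1L, which also serves the GATOR2 complex, was at 25.6 and 22.3 RPKM and at 16.7 and 16.2 RPKM. SEC13, which the pore shares with the COPII coat of vesicles leaving the endoplasmic reticulum, was at 67.2 RPKM without and 88.6 with the knockdown for U87MG, and at 64.7 and 78.4 RPKM for U251. It had the highest level in this ring, and both knockdown libraries lay above both controls (0.33 ± 0.16, adjusted p = 0.28 by limma). The members of the ring thus ranged from -1.12 to 0.39 in U87MG although their proteins form 1 complex.

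Among the 5 inner ring scaffold genes, the knockdown library of U87MG was lower for all and that of U251 for 3 (medians -0.57 and -0.13). NUP155, which links the ring to the membrane, was at 10.8 RPKM without and 5.52 with the knockdown for U87MG, and at 12.3 and 8.40 RPKM for U251 (-0.68 ± 0.17, adjusted p = 0.076 by limma). NUP205, a large scaffold subunit, was at 38.9 RPKM without and 24.4 with the knockdown for U87MG, but at 29.8 and 30.0 RPKM for U251. By recovered reads its ratio was 0.627 (95% Clopper-Pearson interval 0.603 to 0.653) in U87MG and 1.006 (0.967 to 1.047) in U251. NUP93, which recruits the other inner ring subunits, had ratios of -0.57 and -0.13, and NUP188 of -0.30 and -0.15. NUP35, a membrane-binding subunit, was at 11.3 and 10.85 RPKM and at 8.85 and 11.3 RPKM, and its U87MG ratio of -0.05 changed sign after trimmed-mean rescaling or quantile normalization.

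The 3 channel nucleoporins had median ratios of -0.33 in U87MG and -0.12 in U251. NUP62 was at 18.4 RPKM without and 14.4 with the knockdown for U87MG, and at 28.6 and 24.2 RPKM for U251, NUP98 at 20.8 and 15.25 RPKM and at 18.0 and 16.4 RPKM, and NUP54 at 21.0 and 19.1 RPKM and at 38.1 and 40.4 RPKM. Their limma estimates lay between -0.28 and -0.02, with SEs of 0.16 to 0.17. For NUP62 35.4% of its 31-base words lie in other annotated genes, ATF5 sharing the most, so its level is uncertain.

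On the cytoplasmic face AAAS, encoding aladin, stood out. It was at 15.9 RPKM in control and 8.53 in knockdown cells of U87MG, against 16.05 and 10.9 RPKM for U251 (-0.67 ± 0.17, adjusted p = 0.076 by limma), with both controls alike. RAE1, an mRNA export factor that pairs with NUP98, was at 42.5 and 29.9 RPKM and at 32.6 and 25.9 RPKM (-0.41 ± 0.16). NUP214, the docking site of the export helicase DDX19, had ratios of -0.42 and -0.16. Its partner NUP88 had ratios of -0.10 and 0.02. RANBP2, the SUMO ligase of the filaments, was at 24.5 and 20.7 RPKM and at 28.0 and 29.1 RPKM, and 32.6% of its 31-base words occur in other genes, chiefly in its paralog RGPD3.

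In the basket, all 3 genes were lower in U87MG, while in U251 NUP50 (-0.73) and NUP153 (-0.11) lay below 0 and TPR (0.03) above. NUP153, which tethers the basket, was at 11.05 RPKM without and 7.41 with the knockdown for U87MG, and at 20.6 and 19.1 RPKM for U251. TPR, the coiled-coil protein that forms the basket filaments, was at 38.3 RPKM without and 27.7 with the knockdown for U87MG, and at 111 and 114 RPKM for U251. Its read ratio was 0.724 (0.693 to 0.756) in U87MG and 1.02 (0.999 to 1.05) in U251. Whether the lines differ in this was not tested, since the fit has no residual degree of freedom for it.

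Both genes of the Ran cycle were lower in both lines. RCC1, the exchange factor that loads Ran with GTP on chromatin, was at 70.3 RPKM without and 39.6 with the knockdown for U87MG, and at 38.7 and 29.5 RPKM for U251 (-0.60 ± 0.18, adjusted p = 0.11 by limma). RAN itself was at 219 and 172 RPKM and at 133 and 119 RPKM (-0.25 ± 0.15). In both genes the U87MG knockdown library stayed above the U251 control, so the arms overlapped across the lines.

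The import receptors differed in direction. Of the 4 importin alpha genes among the members, limma called KPNA2 lower and not KPNA1, KPNA3 or KPNA4. Outside the members, KPNA6 was at 7.61 and 4.89 RPKM and at 9.03 and 5.35 RPKM, with both knockdown libraries below both controls (-0.60 ± 0.16, adjusted p = 0.09 by limma). KPNA5, also outside the members, went the other way, at 5.13 and 5.46 RPKM and at 5.34 and 8.41 RPKM. Both of its knockdown libraries lay above both controls (0.32 ± 0.18, adjusted p = 0.36 by limma). KPNA1, importin alpha 5, was at 19.0 RPKM without and 25.0 with the knockdown for U87MG, and at 10.7 and 13.8 RPKM for U251 (0.36 ± 0.16, adjusted p = 0.25 by limma). By recovered reads its ratio was 1.32 (1.24 to 1.40) in U87MG and 1.29 (1.19 to 1.40) in U251. KPNA3 was at 15.8 and 16.65 RPKM and at 19.4 and 20.4 RPKM, with a ratio of 0.07 in each line. KPNA4 was at 25.1 and 25.3 RPKM and at 17.2 and 21.7 RPKM. The difference between KPNA2 and its paralogs was not tested as such.

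KPNB1, importin beta 1, the carrier that all these adaptors use, was at 189 RPKM without and 183.5 with the knockdown for U87MG, and at 169 and 194 RPKM for U251 (0.08 ± 0.15), and its U87MG ratio of -0.04 changed sign after trimmed-mean rescaling. TNPO3, the importer of SR proteins, was at 64.4 RPKM without and 70.2 with the knockdown for U87MG, and at 33.5 and 40.4 RPKM for U251. Its read ratios were 1.09 (1.06 to 1.12) and 1.21 (1.16 to 1.26), and its limma estimate was 0.19 ± 0.16. TNPO1, transportin 1, which imports hnRNP A1 and other cargo, was at 38.3 and 30.2 RPKM and at 32.4 and 26.0 RPKM (-0.32 ± 0.16), with both knockdown libraries below both controls. Neither TNPO gene passed the adjusted threshold.

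Of the export receptors, XPO1 (CRM1), the receptor for leucine-rich export signals, was at 89.8 RPKM without and 55.9 with the knockdown for U87MG, and at 112 and 85.8 RPKM for U251 (-0.53 ± 0.16, adjusted p = 0.13 by limma). CSE1L (CAS), which returns importin alpha to the cytoplasm, was at 79.7 RPKM without and 68.8 with the knockdown for U87MG, and at 69.0 and 86.5 RPKM for U251. It was thus lower in 1 knockdown library and higher in the other (0.06 ± 0.18). Of the mRNA export pair, NXF1 was at 14.99 and 13.3 RPKM and at 20.1 and 19.6 RPKM, and its cofactor NXT1 was at 8.82 and 7.44 RPKM and at 8.35 and 9.51 RPKM. The limma estimates of NXF1 and NXT1 were -0.10 ± 0.16 and -0.02 ± 0.18.

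Ratios of the lines went together over the members, with Pearson r = 0.79 and Spearman rho = 0.80 over 38 genes, against 0.48 and 0.49 over the 16098 genes tested. The lines share no library, but genes within a library are not independent, so this is a description. The members had median levels of 18.1 to 22.1 RPKM per library, while a gene was tested from 1 RPKM in 1 library. Members were not set beside genes of like level. In 34 of 38 members (89.5%) the U251 ratio lay above the U87MG ratio, against 57.1% of all genes. The exceptions were NUP210 (with too few reads in U87MG for a usable ratio), SEC13 (0.39 and 0.27 in U87MG and U251), KPNA1 (0.38 and 0.34) and KPNA3 (0.07 in each). Under quantile normalization the U251 ratios of NUP205, NUP88 and TPR, all near 0, changed sign. Whether the lines differ was not tested.

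**Figure D3:**
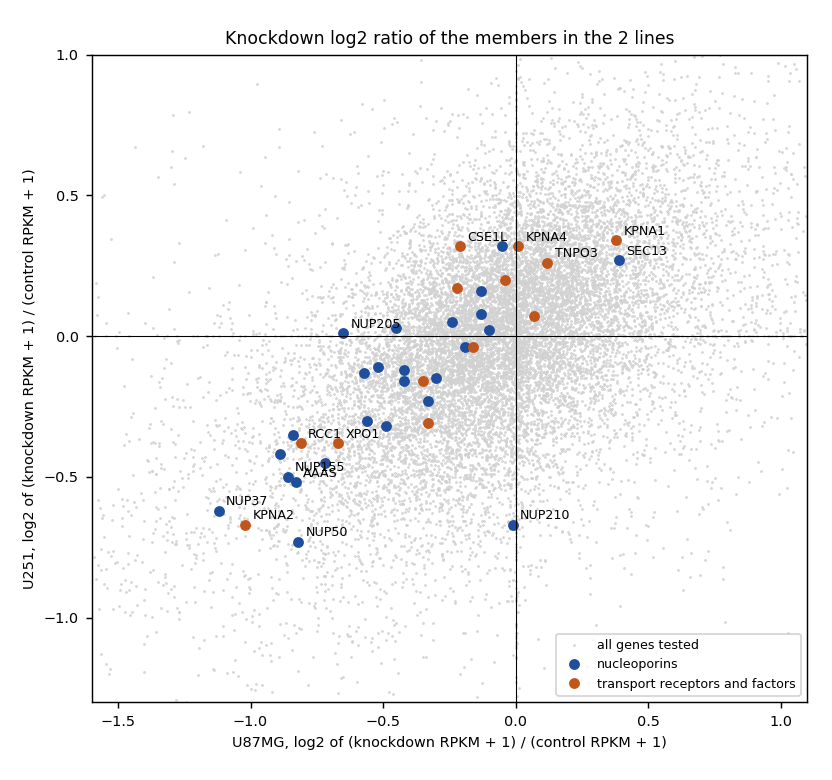
Log2 ratio of knockdown over control in U87MG (x axis) and U251 (y axis) for nucleoporins (blue), transport receptors and factors (orange) and all 16098 genes tested (grey; points beyond the axes are not drawn). Most members lie left of 0, with KPNA2, NUP37 and NUP50 at the lower left and KPNA1 and SEC13 at the upper right.

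Other genes of nuclear transport, 55 in the table, were counted from a separate list. Of the 52 tested, limma called 2 lower (3.85%, against 2.61% of all genes) and 0 higher (1.16% of all genes). At an unadjusted p under 0.05, 12 were lower (23.1%, against 12.8%) and 4 higher (7.69%, against 8.29%). The list medians were -0.25 in U87MG and -0.06 in U251, against -0.05 and -0.00 over all genes. XPO7, an exportin with broad cargo, fell from 22.9 to 10.1 RPKM for U87MG and from 30.2 to 10.2 RPKM for U251. Its estimate was -1.29 ± 0.18 (adjusted p = 0.018 by limma). XPOT, which exports tRNA, fell from 105 to 62.5 RPKM and from 50.7 to 28.7 RPKM (-0.77 ± 0.16, adjusted p = 0.045). After trimmed-mean rescaling neither was called, and without the intensity trend XPO7 alone was.

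The second comparison was between the lines, with the arm as a covariate. Limma called 11 of 38 members (28.9%) lower in U87MG than in U251, against 27% of all genes, and 5 (13.2%) higher, against 21.6%. Both shares lie near or below those of all genes. In 12 members both U87MG libraries lay below both U251 libraries (31.6%, against 37% of all genes), and in 6 above (15.8%, against 31.5%).

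NUP210, a transmembrane nucleoporin that some cell types lack, differed most. It was at 0.0211 RPKM in control and 0.0160 in knockdown cells of U87MG, which is 4 and 3 reads, and at 11.8 and 7.08 RPKM in U251, which is 2137 and 1426 reads. The level in U251 was 560 times that in U87MG in the controls (95% Clopper-Pearson interval 218 to 2056) and 442 times in the knockdown libraries (151 to 2144). Within U251 the read ratio of knockdown over control was 0.599 (0.560 to 0.641). In U87MG these reads give no usable ratio. NUP210 lies on chromosome 3 from 13316235 to 13420309, reverse strand.

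All 3 basket genes were called lower in U87MG, against 27% of all genes. TPR was lower by 1.76 ± 0.18 on the log2 scale (limma estimate -1.76, adjusted p = 0.00019), and the estimates of NUP153 and NUP50 were -1.05 ± 0.18 and -0.61 ± 0.16. NUP54 (-0.94), NUP93 (-0.89), KPNA2 (-0.71), NUP62 (-0.66), NUP85 (-0.61), XPO1 (-0.46) and NXF1 (-0.46) were also called lower in U87MG. The genes called higher in U87MG were TNPO3 (0.85 ± 0.16), KPNA1 (0.79 ± 0.16), RCC1 (0.63), RAN (0.62) and SEH1L (0.51). KPNA1 and KPNA2, which share a function, thus differed between the lines in opposite directions.

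**Figure D4:**
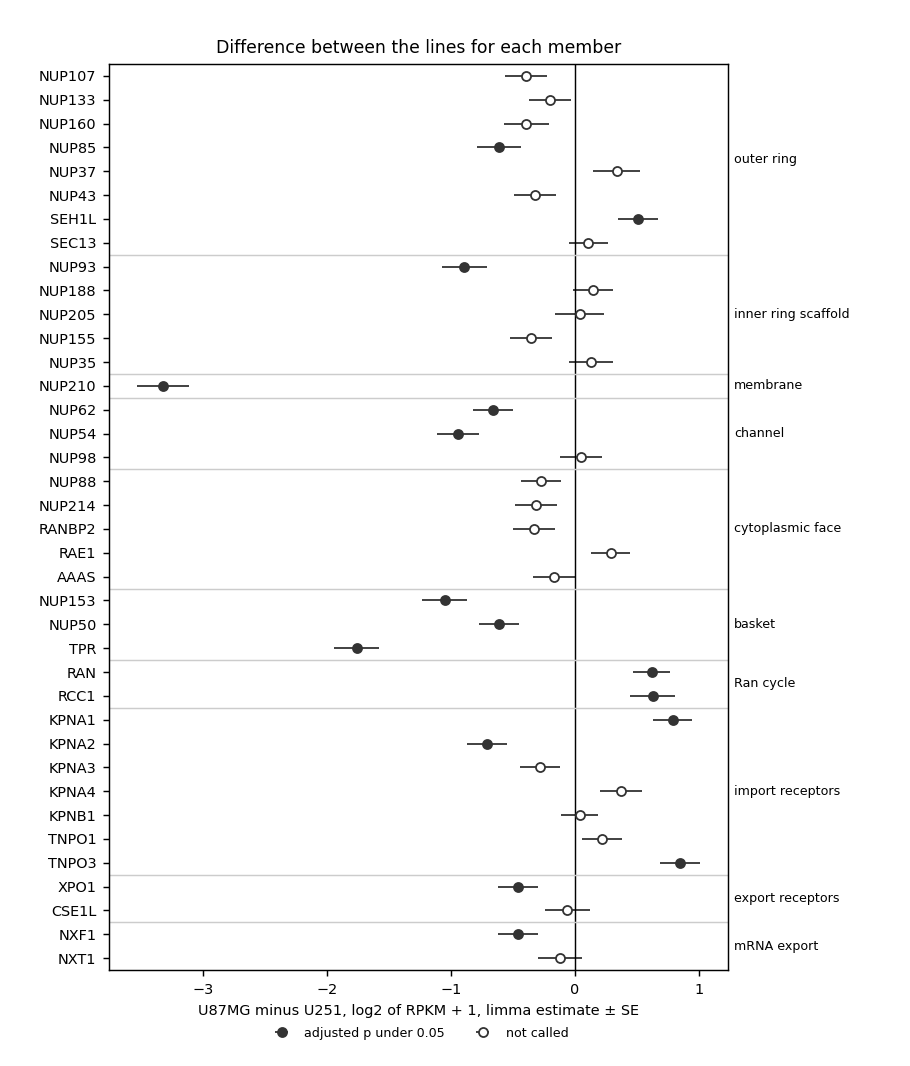
Limma estimate ± SE of U87MG minus U251 on the log2(RPKM + 1) scale for each member; filled points have an adjusted p under 0.05. NUP210 at -3.32 and TPR at -1.76 lie farthest to the left, TNPO3 at 0.85 and KPNA1 at 0.79 farthest to the right.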

How the data were processed

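RNA of 4 libraries was sequenced in pairs of reads after poly(A) selection, per the labels' protocols. The authors deposited 1 table of RPKM values; Bowtie 0.12.2 and hg19 are named in the submitters' processing notes, while the sources used here name no counting program or annotation. Reads were recovered from the RPKM steps: 637 of 679 small RNA genes gave the same library totals, and 1996 of 2000 sampled genes (99.8%) came out whole within 0.01 reads. These are the smallest whole numbers possible, which taken alone would make the 95% Clopper-Pearson intervals too wide. The intervals cover counting error only and treat the counted reads as independent. Whether both reads of a pair were counted is not given, so the intervals could also be too narrow. Log2(RPKM + 1) was fitted with limma 3.58.1 (R 4.3.3) on 16098 genes with at least 1 RPKM in at least 1 library, with the line as a block, an intensity trend and Benjamini-Hochberg adjustment over all of them; 1 residual degree of freedom remained. The pseudocount understates changes of low genes. Within a line there is no test. All 38 members are named, and of the separate list of transport genes those that limma called. KPNA5, KPNA6, GLE1, DDX19A, DDX19B, NUPL2 and IPO5 of that list are named outside this rule, without a call. The script was tested on simulated data. The members, lists and motifs were chosen with earlier results of these data known. Shared 31-base words and positions come from GRCh38 (GENCODE 29), promoters from RefSeq (GRCh38.p14). The 7 alternatives tried are given in the closing section.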

Additional observations from a re-analysis of the deposited data

Results flagged for a closer look

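In 4 members the knockdown library was lower than the control in U87MG and higher in U251, with both 95% Clopper-Pearson counting intervals excluding a ratio of 1; the difference between the lines was not tested. For CSE1L, the exporter of importin alpha, the read ratio was 0.863 (0.835 to 0.892) in U87MG and 1.25 (1.21 to 1.30) in U251, a log2 ratio in U87MG minus that in U251 of -0.53. NUP133, of the outer ring, had 0.910 (0.843 to 0.981) and 1.13 (1.05 to 1.21), a difference of -0.29. RANBP2, of the cytoplasmic filaments, had 0.842 (0.815 to 0.871) and 1.037 (1.006 to 1.067), also -0.29. NUP54, of the channel, had 0.910 (0.840 to 0.985) and 1.06 (1.002 to 1.121), a difference of -0.21. After trimmed-mean rescaling, tried after seeing the data, the U87MG intervals of NUP133 (0.891 to 1.037) and NUP54 (0.888 to 1.041) included 1, while those of CSE1L (0.882 to 0.943) and RANBP2 (0.861 to 0.921) did not. The intervals leave out the spread between cultures, and the share of all genes that meet the same criterion was not computed.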

How the results depend on the processing

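The count of members called lower across the lines was 3, and it was 3 with a pseudocount of 0.1 and with quantile normalization, naming the same genes in both. It was 0 with no filter, 0 after trimmed-mean rescaling, 0 without the replicate block, 0 without the intensity trend and 6 with a filter of 5 RPKM, which added NUP85, NUP155 and AAAS. Of the other transport genes, 2 were called lower, against 0 with no filter, 0 after trimmed-mean rescaling, 0 without the replicate block and 1 without the intensity trend. Members called lower in U87MG than in U251 numbered 11, against 5 with no filter and 4 without the block, and those called higher 5, against 2 and 1. Over all genes the knockdown gave 420 lower and 186 higher calls, 42 and 34 after trimmed-mean rescaling, 172 and 88 without the intensity trend, 513 and 315 with quantile normalization, 432 and 201 with a pseudocount of 0.1, 608 and 301 of 10752 genes with a filter of 5 RPKM (5.65% lower), and 0 and 0 both with no filter and without the block. Of 77 single-gene estimates, 20 had a call; 15 of these lost it under at least 1 setting and 4 others gained one; the cause was not tested. The sign changed for 4 estimates without a call: those of the knockdown went from -0.02 to 0.02 for NUP54, from -0.04 to 0.01 for NUP88 and from -0.02 to 0.02 for NXT1 after trimmed-mean rescaling (0.05 for NXT1 with quantile normalization), and U87MG minus U251 for KPNB1 went from 0.04 to -0.20 with quantile normalization. Leaving out a library leaves no residual degree of freedom and was not run. No paired analysis by replicate number was possible because each line and arm has 1 library; the line served as the block. Reads of low genes such as NUP210 in U87MG limit its ratio.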

Other observations

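GLE1 and the DDX19 genes, which act in mRNA export on the cytoplasmic side of the pore, had higher values in the knockdown library of both lines, and none was called by limma. GLE1, the activator of the export helicase, was at 19.4 RPKM in control and 27 in knockdown cells of U87MG, against 12.35 and 19.7 RPKM for U251 (0.55 ± 0.17, adjusted p = 0.12 by limma). The helicase gene DDX19A was at 30.99 and 41.4 RPKM and at 57.9 and 90.0 RPKM (0.52 ± 0.16, adjusted p = 0.13), and DDX19B, its close paralog, at 6.47 and 8.34 RPKM and at 61.2 and 80.4 RPKM. These genes were singled out after their values were seen, and other genes of that side had ratios below 0 in both lines, among them NUP214 (-0.42 and -0.16), NUPL2 (-0.22 and -0.04) and RAE1 (-0.49 and -0.32).

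IPO5, an importin of ribosomal proteins and histones, was at 101 RPKM in control and 243 in knockdown cells of U87MG, against 79.1 and 89.7 RPKM for U251 (adjusted p = 0.15 by limma for both lines together). Whether the lines differ in it was not tested. SEC13 also belongs to the COPII coat. Of 10 other COPII genes, chosen after SEC13's values were seen, none was called by limma. SEC31A, the coat partner of SEC13, was at 24.6 RPKM without and 24.6 with the knockdown for U87MG, and at 44.3 and 44.9 RPKM for U251. Its paralog SEC31B had the largest estimate of the 10, 0.81 ± 0.22 (adjusted p = 0.091 by limma), with 0.198 and 0.742 RPKM for U87MG and 1.60 and 4.49 RPKM for U251.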
